A study of Mus musculus with 6 samples.

Results

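The 47 genes described here are those whose most abundant transcript was not the same in mouse epiblast stem cells grown without Activin A and in cells grown with it. They were chosen from the transcript table itself. A gene was taken when it was protein-coding, had a summed level of at least 10 TPM (a relative level that corrects for transcript length) in all 6 libraries, and had the same leading transcript in the 3 libraries without Activin A and another one in the 3 libraries with it. Of 21816 protein-coding genes in the table, 5826 reached that level and 5371 of these had at least 2 annotated transcripts. The 47 genes are 0.875% of those 5371. Because the shares of gene TPM chose the genes, they are given as a description, with no test.

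Most mammalian genes give rise to several transcripts through alternative start sites, alternative splicing and alternative polyadenylation. An annotation sorts them into types. A protein_coding transcript has an open reading frame, a nonsense_mediated_decay transcript has a stop codon placed so that the RNA is a likely target of that surveillance pathway, a retained_intron transcript keeps intronic sequence, and a processed_transcript has no open reading frame assigned. Alternative first exons can place a gene under another promoter without any change in the protein, while alternative internal exons can add or remove a stretch of it. Epiblast stem cells represent the pluripotent cells of the postimplantation embryo, and Activin A, a ligand of the TGF-beta family, is used to keep them in culture.

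Poly(A) RNA was sequenced in 3 libraries without Activin A and in 3 libraries with Activin A at 20 ng/mL. Cells of both groups received FGF2 at 10 ng/mL, the Wnt secretion inhibitor IWP2 at 5 µM and SB431542, an inhibitor of Activin, Nodal and TGF-beta type I receptors, at 2 µM, and grew on inactivated mouse embryonic fibroblasts. The protocol text names Activin A for all 6 samples, and so does a growth factor entry of replicate 1 of the group without it, against the title of that sample. The design text speaks of 2 lines with 3 replicates each, so a difference between lines cannot be told apart from Activin A, and nothing in the labels tells whether these were separate cultures.

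The libraries held 13567995 to 14992042 estimated reads without Activin A and 9946521 to 16350923 with it. All 9 epiblast markers examined were above 1 TPM in every library, with summed levels of 295 to 316 TPM without and 674 to 697 TPM with Activin A. A list of 22 fibroblast genes, among which Tagln and Acta2 had the highest levels and none was at 0, summed to 1122 to 1151 TPM without and 739 to 864 TPM with Activin A, and 19 or 20 of its genes were above 1 TPM in each library. Genes of that list were thus detected in both groups. Both sums weigh the highest genes most and do not stand for each gene of a list. Over the 6 libraries Pou5f1 ranged from 99.7 to 316 TPM and Sox2 from 25.4 to 39.8 TPM. Tagln ranged from 478 to 753 TPM and Fbn1 from 4.36 to 5.22 TPM. In such bulk libraries fewer cells of a type and less RNA per cell cannot be told apart, and the part of feeder RNA in the shares below was not tested. The TPM-weighted mean transcript length was 833, 871 and 841 bases without and 822, 798 and 876 bases with Activin A, so the groups overlapped.

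Most genes kept one leading transcript. The same transcript led in all 6 libraries in 3817 of the 5371 genes (71.1%). In 1507 genes (28.1%) the leading transcript was not constant even within a group, with 1019 such genes without and 1065 with Activin A.

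The exchange of rank was mostly narrow. The lead of a gene is the smallest margin, over the 6 libraries, by which the leading transcript of a group exceeded the leading transcript of the other group, in percentage points of gene TPM. It ranged from 0.113 to 13.3 points with a median of 1.93. It was at least 10 points in 1 gene, Nudt1, at least 5 points in 4 genes, under 2 points in 26 and under 1 point in 12. In 29 genes the shares of both transcripts did not overlap between the groups, and in 18 the share of at least 1 of them did. Of the 5371 genes, 7.52% had no overlap, in opposite directions, in both of the 2 transcripts with the highest mean TPM over the 6 libraries. The 47 genes were chosen on these same shares, so nothing is read from their 29. The leading transcript held less than 50% of gene TPM in all 6 libraries in 25 genes and more than 50% in all 6 in only 5 genes, so in most of them it was the largest of several fractions.

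**Figure D1:**
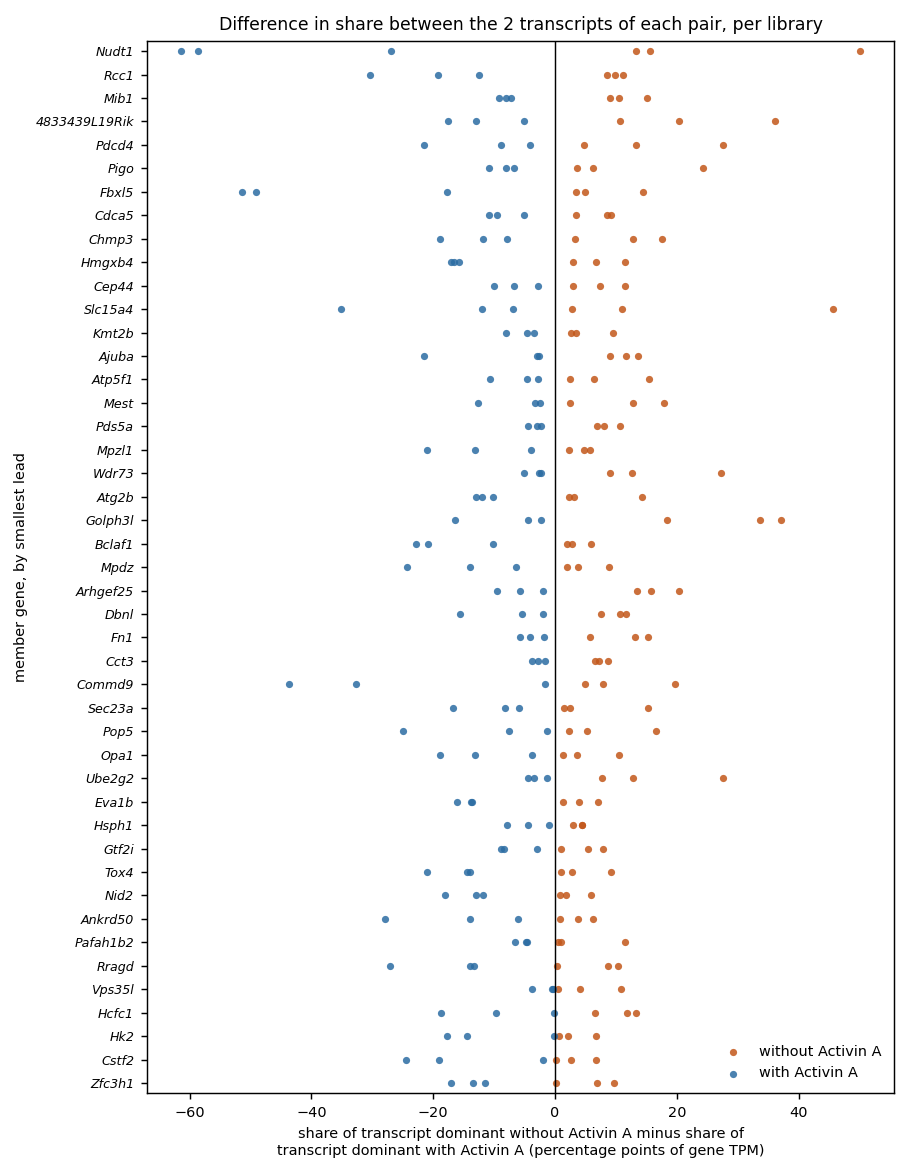
Share of the transcript dominant without Activin A minus share of the transcript dominant with it, in percentage points of gene TPM (x axis), for 45 of the 47 genes (y axis, ordered by lead), with 1 point per library. By the rule the points without Activin A lie right of 0 and those with Activin A left of it, and in 11 of the genes plotted the nearest library lies within 1 percentage point of 0.

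At the level floor, the members with the lowest smallest gene level were Golph3l and Pigo with 11.4 TPM and Commd9 with 12.1 TPM. Genes that met the rule but for that floor were Shroom2 with 9.54 TPM, Slain1 with 9.47 TPM and Rccd1 with 9.33 TPM in their lowest library. The smallest leads were those of Hk2 (0.130 points), Cstf2 (0.120 points) and Zfc3h1 (0.113 points), so these entered the set on margins far below the spread between libraries of a group.

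A transcript leads by TPM either because it has more reads or because it is short, since TPM divides reads by effective length (the annotated length less a correction for fragment size). Read counts give another view of the same pairs. In 8 genes the order of the pair by estimated reads also changed in all 6 libraries: Rcc1, 4833439L19Rik, Chmp3, Hmgxb4, Dbnl, Opa1, Eva1b and Rragd. In 33 genes the same transcript had more reads in all 6 libraries, namely the transcript dominant without Activin A in 17 genes and the one dominant with it in 16, and in each of these 33 it was the longer of the pair. In the remaining 6 genes the order by reads varied. Across all transcripts of a gene, 6 genes switched by TPM and by reads alike, namely 4833439L19Rik, Dbnl, Eva1b, Hmgxb4, Rcc1 and Rragd. These genes were singled out after their values were seen.

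**Figure D2:**
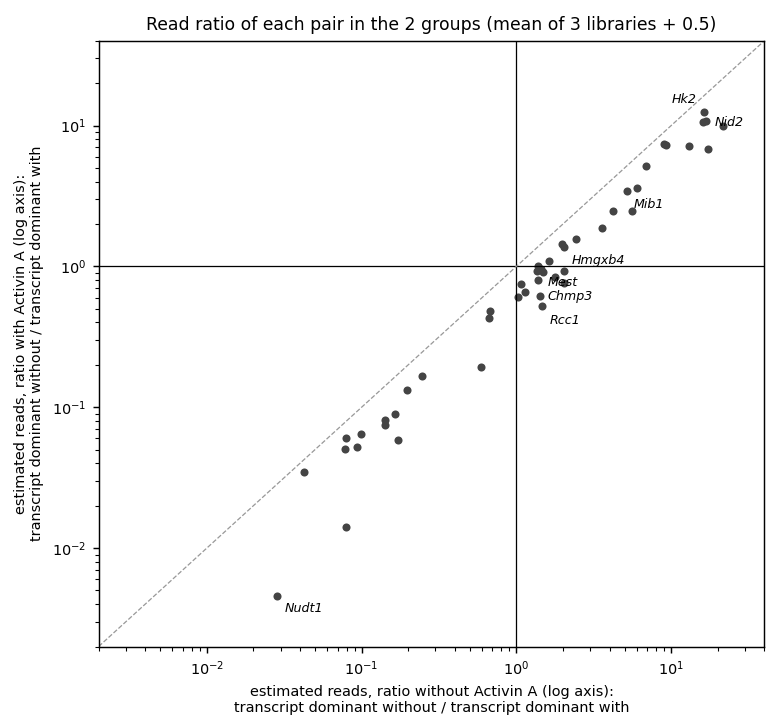
Estimated reads of the transcript dominant without Activin A divided by those of the transcript dominant with it (mean of 3 libraries, plus 0.5), without Activin A on the x axis and with Activin A on the y axis, both on log scales, with 1 point per gene. The lower right quadrant, where the order of mean reads changes, holds 12 genes, while 19 lie in the upper right and 16 in the lower left quadrant, where 1 transcript had more reads in both groups.

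The types of the paired transcripts were close to those of genes in general. Both were protein_coding in 20 of the 47 genes (42.6%), of which 3 had the same coding exons. For comparison, each of the 5371 genes was given a pair from its 2 transcripts of highest mean TPM over the 6 libraries, the one whose share was higher without than with Activin A by the larger margin standing for the one dominant without, and both were protein_coding in 39.5% of them. A coding transcript led without Activin A and another type with it in 12 genes (25.5%, against 24.2% of all pairs), and the reverse held in 12 (25.5% against 28.2%). Neither was coding in Slc15a4, Pop5 and Gtf2i (6.38% against 8.14%). A processed_transcript led in 10 genes without and in 5 with Activin A, a retained_intron transcript in 4 without and in 8 with, and a nonsense_mediated_decay transcript in 1 without and in 2 with. These counts are small and no direction was tested.

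The pairs differed more often at their 5′ end than at their 3′ end. First exons did not overlap in 35 genes (74.5%, against 66.9% of all pairs) and last exons did not overlap in 19 (40.4% against 49.9%). The transcript dominant without Activin A started upstream of the other in 30 genes (63.8% against 48.6%) and was the longer in 27 (57.4% against 44.4%). Lengths differed by at least 2-fold in 29 genes (61.7% against 59.1%), and at least 1 transcript was under 600 bases in 21 (44.7% against 49.5%). The genes had a median of 8 annotated transcripts, against 6, and no exonic base was shared by the pairs of Mpdz, Gtf2i and Ankrd50.

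**Figure D3:**
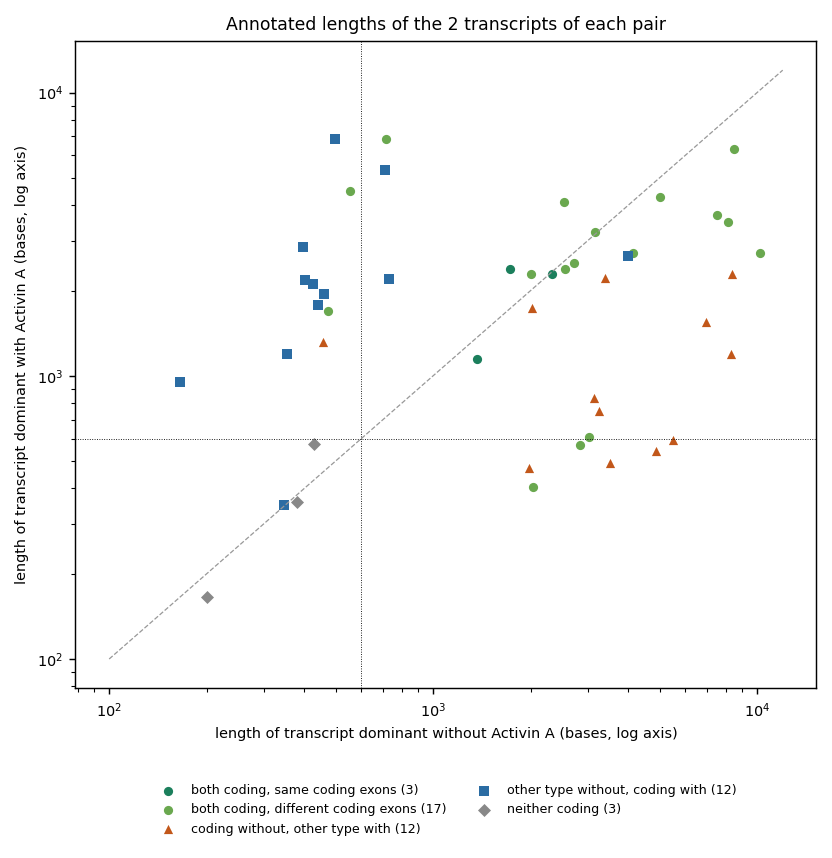
Annotated length in bases of the transcript dominant without Activin A (x axis) and of the one dominant with it (y axis), both on log scales, with 1 point per gene marked by the types of the pair; dotted lines mark 600 bases and the dashed line equal length. Pairs of a coding and a non-coding transcript lie mostly far from the dashed line, and 21 genes have at least 1 transcript under 600 bases.

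Rcc1, which encodes the nucleotide exchange factor that loads the GTPase Ran on chromatin, had the widest lead of the 3 genes whose paired transcripts have the same coding exons, at 8.46 points. Rcc1 (ENSMUSG00000028896.13) lies at chr4:132331919-132353605 on the minus strand of GRCm38. Rcc1-203 and Rcc1-202 share all 1263 coding bases, and their first exons start 5889 bases apart, with that of Rcc1-203 upstream. Rcc1-203 held 33.7%, 31.8% and 33.1% of gene TPM without Activin A, against 21.5%, 19.1% and 31.4% with it. Rcc1-202 held 25.2%, 20.6% and 23.2% without and 40.7%, 49.5% and 43.8% with Activin A. The groups did not overlap for either transcript, although Rcc1-203 in the library with Activin A replicate 3 came close to the group without. Read counts moved the same way, with 489, 455 and 388 reads of Rcc1-202 without and 743, 753 and 408 with Activin A, the last of these from the shallowest library.

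RefSeq promoter windows (250 bases before to 50 after a start, GRCm38.p6) had a start within 50 bases of 29 of the 94 transcript starts, and the table held 34 of the 47 genes. Only the window for Rcc1-202 is shown, because the nearest window start lay 5886 bases from the start of Rcc1-203. Rcc1-202 starts 3 bases from the start of the window's gene model. Capitals mark each CG dinucleotide, a letter pair that reads the same on both strands.
Rcc1-202: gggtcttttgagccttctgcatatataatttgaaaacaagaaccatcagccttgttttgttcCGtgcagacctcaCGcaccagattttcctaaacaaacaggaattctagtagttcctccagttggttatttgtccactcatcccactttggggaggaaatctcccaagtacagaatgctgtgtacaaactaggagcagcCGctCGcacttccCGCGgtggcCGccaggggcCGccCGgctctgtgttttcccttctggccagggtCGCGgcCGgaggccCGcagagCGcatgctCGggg
It covers chr4:132345701-132346000 and holds 15 CG. Of the 32851 windows in the table, which have a median of 7 CG, 34.6% hold at least as many.

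Pdcd4 and Eva1b also exchanged transcripts with the same coding exons. Pdcd4 encodes an inhibitor of the translation factor eIF4A. Pdcd4-203 held 63.8%, 52.4% and 56.7% without and 47.97%, 45.6% and 39.3% with Activin A, while Pdcd4-201 held 36.2%, 47.6% and 43.3% without and 52.03%, 54.4% and 60.7% with. This pair made up nearly all of the gene, and neither transcript overlapped between the groups. The versions of both Pdcd4 identifiers in the files differ from those of the annotation, and their lengths in the files were 1806 and 2330 bases, against 1733 and 2381 bases in the annotation. In Eva1b, Eva1b-203 had 49.6%, 51.3% and 49.6% without and 42.3%, 40.6% and 41.4% with Activin A, and Eva1b-202 45.7%, 44.3% and 48.3% without and 55.9%, 56.7% and 55.2% with. The shares of Eva1b varied little within a group and did not overlap between groups.

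**Figure D4:**
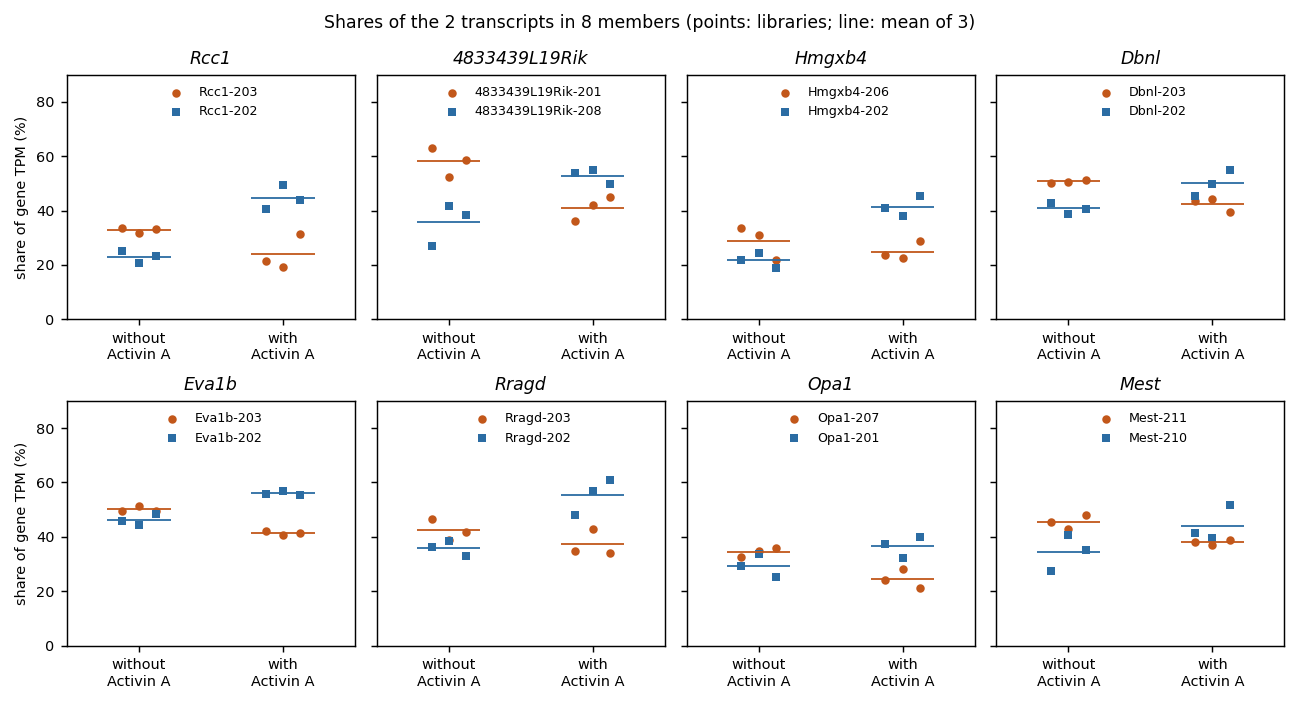
Share of gene TPM (y axis, percent) of both transcripts of the pair in 8 genes, with 1 point per library and a line at the mean of 3 libraries, without Activin A on the left of each panel and with it on the right. The order of the transcripts is reversed between the sides in each panel, and among these 8 genes the smallest margin in any library was lowest in Rragd, at 0.363 points, and highest in Rcc1, at 8.46 points.

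4833439L19Rik (ENSMUSG00000025871.18, chr13:54551218-54565435, minus strand) had, by the smaller of the changes of its 2 shares, the largest change among the genes whose pair also switched by reads. Of the pair, 4833439L19Rik-201 codes over 909 bases and 4833439L19Rik-208 over 852. 4833439L19Rik-201 held 63.1%, 52.4% and 58.8% without and 36.1%, 41.97% and 44.9% with Activin A, and 4833439L19Rik-208 held 27.1%, 41.7% and 38.4% without and 53.6%, 54.9% and 49.9% with. The groups did not overlap for either transcript, and the library without Activin A replicate 2 lay nearest to the other group. The annotation grades the evidence for a transcript by a support level, with 1 the best and 5 the weakest, and 4833439L19Rik-208 has level 5. With transcripts of level 1 or 2 only, where it cannot compete, the share of 4833439L19Rik-201 differed by 0.552 points, against 17.1 points over all transcripts. Rcc1-203, Opa1-207 and Rragd-202 also have level 5. The first coding exon of 4833439L19Rik-201 is absent from 4833439L19Rik-208. Its 28 coding bases (chr13:54564185-54564212, minus strand), which begin with the ATG, are in capitals and the next 20 bases of the transcript in lower case.
4833439L19Rik-201: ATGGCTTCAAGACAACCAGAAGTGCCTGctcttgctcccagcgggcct

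Opa1 (ENSMUSG00000038084.16, chr16:29579334-29654884) encodes the dynamin-family GTPase that fuses mitochondrial inner membranes, a gene known for several splice forms. The pair differs by a pair of internal coding exons, both with a length divisible by 3 and shown here because each transcript has the one the other lacks. The exon in capitals is 111 bases long in Opa1-207 (chr16:29597586-29597696, plus strand) and 54 bases long in Opa1-201 (chr16:29588823-29588876, plus strand), and 20 flanking bases of the transcript are in lower case.
Opa1-207: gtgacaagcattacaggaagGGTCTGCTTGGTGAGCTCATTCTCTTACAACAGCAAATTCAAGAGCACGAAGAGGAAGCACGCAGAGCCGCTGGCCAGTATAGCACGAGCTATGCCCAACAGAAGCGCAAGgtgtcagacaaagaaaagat
Opa1-201: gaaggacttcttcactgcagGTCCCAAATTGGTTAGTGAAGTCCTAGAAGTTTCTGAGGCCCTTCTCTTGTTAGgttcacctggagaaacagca
Opa1-207 held 32.8%, 34.8% and 35.8% without and 24.2%, 28.3% and 21.1% with Activin A and did not overlap between the groups. Opa1-201 held 29.2%, 33.6% and 25.3% without and 37.4%, 32.1% and 39.97% with Activin A, and these overlapped, since replicate 2 without exceeded replicate 2 with. Opa1-207 also ends 2876 bases upstream of Opa1-201, and its coding sequence is marked incomplete. Over all annotated Opa1 transcripts that span the 111-base exon, those holding it made up 48.1%, 40.6% and 51.3% of TPM without and 36.4%, 41.3% and 31.8% with Activin A, again with an overlap between the groups. For the 54-base exon the shares were 44.5%, 39.3% and 40.5% without and 50.4%, 44.7% and 52.4% with, and here the highest library without lay just below the lowest with.

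Rragd (ENSMUSG00000028278.14, chr4:32983037-33022180) encodes a Rag GTPase that takes part in amino acid signalling to mTORC1. Rragd-203 holds a coding exon of 296 bases (chr4:32995802-32996097, plus strand) that Rragd-202 skips. The exon is given whole and in capitals.
Rragd-203: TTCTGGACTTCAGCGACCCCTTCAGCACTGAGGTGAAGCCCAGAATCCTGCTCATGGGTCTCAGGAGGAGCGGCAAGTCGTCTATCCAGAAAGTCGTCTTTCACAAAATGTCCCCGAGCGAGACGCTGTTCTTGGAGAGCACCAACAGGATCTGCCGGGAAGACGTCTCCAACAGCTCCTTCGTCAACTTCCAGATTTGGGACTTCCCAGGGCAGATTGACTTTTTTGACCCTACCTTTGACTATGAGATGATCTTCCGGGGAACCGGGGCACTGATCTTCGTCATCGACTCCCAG
The coding sequence is 1197 bases in Rragd-203 and 837 bases in Rragd-202. Rragd-202 also starts 417 bases downstream of Rragd-203. Its coding sequence begins 490 bases from the most upstream start of the pair, against 426 in Rragd-203. Neither the coding difference nor the share of this pair can thus be assigned to the exon alone. Rragd-203 held 46.7%, 38.7% and 41.6% without and 34.9%, 43.02% and 33.9% with Activin A, which overlapped, while Rragd-202 held 36.4%, 38.4% and 32.9% without and 48.1%, 56.98% and 61.00% with, which did not. Its lead was only 0.363 points, set by the library without Activin A replicate 2. Among transcripts spanning the exon, those holding it had 56.2%, 50.2% and 55.9% of TPM without and 42.04%, 43.02% and 35.7% with Activin A, and these shares did not overlap.

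Dbnl, which encodes an actin-binding adaptor protein of endocytosis, had a pair whose coding sequences differ by 3 bases. Dbnl-202 begins an exon 3 bases earlier than Dbnl-203. These bases (chr11:5797284-5797286, plus strand) are in capitals, with 20 transcript bases on each side in lower case.
Dbnl-202: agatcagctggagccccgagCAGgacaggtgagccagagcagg
Dbnl-203 held 50.3%, 50.4% and 51.4% without and 43.6%, 44.3% and 39.3% with Activin A. Dbnl-202 held 42.8%, 38.9% and 40.7% without and 45.5%, 49.8% and 54.9% with Activin A. The groups did not overlap for either, but Dbnl-202 also runs 333 bases further at its 3′ end, so the share cannot be assigned to the 3 bases alone.

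**Figure D5:**
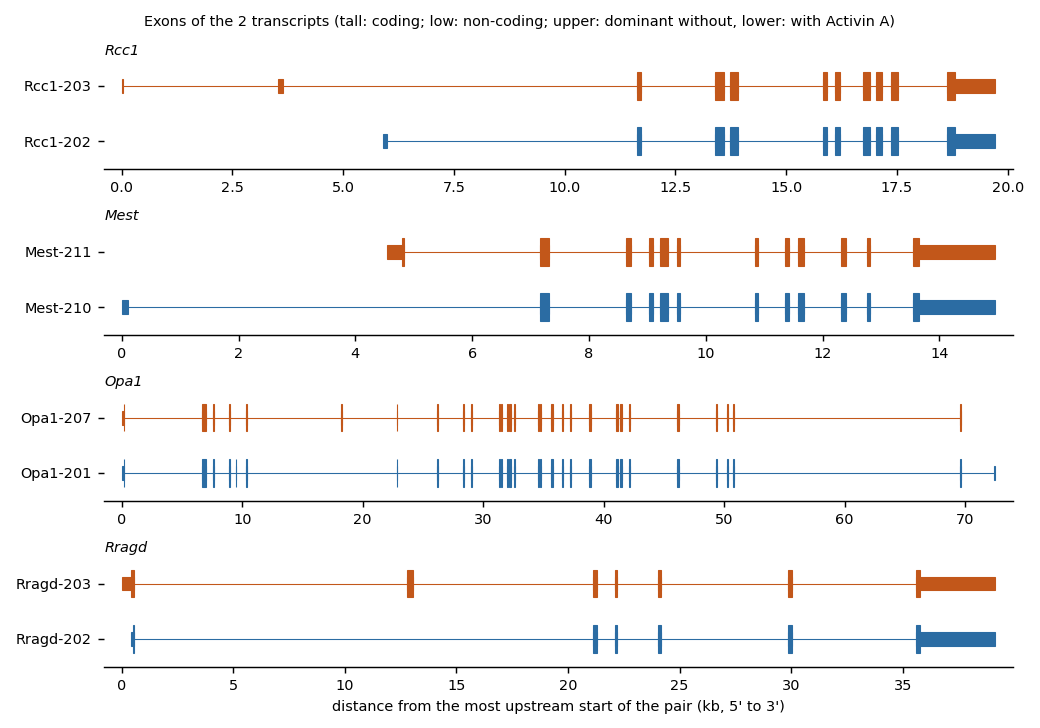
Exons of both transcripts of Rcc1, Mest, Opa1 and Rragd, with the distance in kb from the most upstream start of the pair on the x axis; tall boxes are coding and low boxes non-coding, and the upper transcript of each pair led without Activin A. Rcc1 and Mest differ in their first exons, Opa1 and Rragd in internal coding exons, with Opa1 also differing at its 3′ end and Rragd at its start.

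Hmgxb4, which encodes an HMG-box protein, switched between a nonsense_mediated_decay transcript and a protein_coding one. Hmgxb4-206 held 33.5%, 31.1% and 21.9% without and 23.7%, 22.5% and 28.7% with Activin A, and these overlapped. Hmgxb4-202 held 21.9%, 24.3% and 19.01% without and 40.8%, 38.2% and 45.3% with Activin A and did not. Its reads numbered 276, 355 and 322 without and 727, 582 and 463 with Activin A. The exchange thus came mainly from the coding transcript, which starts 22543 bases downstream of the other. The windows at both starts are shown with each CG in capitals, Hmgxb4-206 starting 29 bases from its window's gene model and Hmgxb4-202 at it.
Hmgxb4-206: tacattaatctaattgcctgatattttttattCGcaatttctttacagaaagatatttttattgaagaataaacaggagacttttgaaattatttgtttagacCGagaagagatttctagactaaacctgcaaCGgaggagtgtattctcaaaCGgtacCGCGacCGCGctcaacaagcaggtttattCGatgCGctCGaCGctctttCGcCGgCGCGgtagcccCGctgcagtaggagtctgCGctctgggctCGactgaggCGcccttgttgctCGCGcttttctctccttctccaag
Hmgxb4-202: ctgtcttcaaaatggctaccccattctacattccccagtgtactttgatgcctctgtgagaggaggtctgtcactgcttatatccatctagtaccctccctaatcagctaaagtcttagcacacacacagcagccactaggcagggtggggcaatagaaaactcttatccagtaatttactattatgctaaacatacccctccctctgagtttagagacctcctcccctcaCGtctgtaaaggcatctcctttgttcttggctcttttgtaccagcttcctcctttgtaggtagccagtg
The window at chr8:74993400-74993699 holds 22 CG, a count that 23.1% of windows reach, and the window at chr8:75015972-75016271 holds 1, which 94.6% reach.

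Mest is an imprinted gene, expressed from the paternal allele and known for alternative first exons. Mest-211 held 45.4%, 43.01% and 47.9% without and 37.95%, 36.9% and 38.98% with Activin A, with no overlap. Mest-210, which starts 4544 bases upstream and has a coding sequence of 978 bases against 1005 in Mest-211, held 27.4%, 40.6% and 35.00% without and 41.3%, 39.5% and 51.6% with Activin A, with an overlap. Mest-211 had 2261, 2114 and 2185 reads without and 990.5, 866 and 603 with Activin A, while Mest-210 had 1262, 1841 and 1475 without and 994, 854 and 737 with. Both transcripts therefore had fewer reads with Activin A, Mest-211 more so. The windows at their starts, each placed on a gene model that starts at the same base as the transcript, are given with CG in capitals.
Mest-211: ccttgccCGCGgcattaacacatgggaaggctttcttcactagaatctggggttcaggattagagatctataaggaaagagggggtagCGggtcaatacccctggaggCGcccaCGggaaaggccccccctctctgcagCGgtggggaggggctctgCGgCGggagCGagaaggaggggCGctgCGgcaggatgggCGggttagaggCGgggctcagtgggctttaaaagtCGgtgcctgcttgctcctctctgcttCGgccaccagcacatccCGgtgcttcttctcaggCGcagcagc
Mest-210: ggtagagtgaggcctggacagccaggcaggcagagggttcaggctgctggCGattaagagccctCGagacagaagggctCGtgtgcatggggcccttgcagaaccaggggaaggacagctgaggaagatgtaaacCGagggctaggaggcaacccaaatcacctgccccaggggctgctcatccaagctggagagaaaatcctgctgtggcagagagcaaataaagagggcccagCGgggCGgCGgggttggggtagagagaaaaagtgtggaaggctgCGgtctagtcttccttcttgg
The window of Mest-211 (chr6:30737800-30738099) holds 17 CG and that of Mest-210 (chr6:30733256-30733555) 8, counts that 31.4% and 48.65% of windows reach.

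Chmp3, a subunit of the ESCRT-III membrane scission complex, switched between short transcripts. Chmp3-206, a processed_transcript of 347 bases, held 32.6%, 36.4% and 38.2% without and 22.8%, 18.1% and 24.7% with Activin A, and Chmp3-207, an incomplete coding transcript of 350 bases, 29.4%, 23.6% and 20.6% without and 34.6%, 37.01% and 32.6% with. The groups did not overlap for either, on 63.8, 68.8 and 83.1 reads of Chmp3-206 without and 48.1, 28.2 and 33.1 with. Sec23a, a coat protein of COPII vesicles, has a coding exon of 87 bases in Sec23a-201 that Sec23a-204 skips. Sec23a-201 also starts 4782 bases upstream of Sec23a-204 and ends 1321 bases downstream of it. The share of this pair thus cannot be assigned to the exon alone. Of the TPM of this pair, Sec23a-201 made up 42.3%, 48.7% and 49.2% without and 54.1%, 53.3% and 58.4% with Activin A, with no overlap, though Sec23a-201 had the more reads in all 6 libraries.

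In a further group a long coding transcript led without Activin A and a shorter, incomplete coding one with it. Mib1, an E3 ubiquitin ligase that acts on Notch ligands, had 51.7%, 54.8% and 52.2% for the 10231-base Mib1-201 without Activin A and 45.4%, 45.6% and 46.4% with it. The 2721-base Mib1-204 had 42.6%, 39.7% and 41.7% without and 54.6%, 53.7% and 53.6% with. The groups of Mib1 were tight and apart for both transcripts, yet Mib1-201 had more reads than Mib1-204 in every library. The same direction was found in the cohesin regulator Pds5a, the autophagy gene Atg2b, the Golgi gene Golph3l, the histone methyltransferase Kmt2b, the ubiquitin-conjugating enzyme gene Ube2g2, the retriever subunit Vps35l and the cell cycle cofactor Hcfc1, whose leads ran from 0.243 points in Hcfc1 to 2.62 points in Kmt2b. The shares of both transcripts overlapped between the groups in Kmt2b and Vps35l, and in Hcfc1 those of Hcfc1-201 did. Among all these genes Atg2b was the exception in its change. Atg2b-201 had 49.9%, 49.6% and 54.4% without and 33.6%, 28.04% and 34.5% with Activin A, while Atg2b-203, at 46.8%, 47.3% and 40.1% without and 43.9%, 40.04% and 47.4% with, was not higher with Activin A on average.

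The opposite order, a short coding transcript leading without Activin A and a longer one with it, was found in Cep44, which encodes a centrosomal protein, in Pafah1b2, a catalytic subunit of platelet-activating factor acetylhydrolase 1b, and in Cstf2. Cstf2 encodes the CstF subunit that binds RNA downstream of the cleavage site and was the only one of 20 listed cleavage and polyadenylation genes among the 47. Of those 20, 16 passed the level floor with at least 2 transcripts. The rule took 0.875% of all such genes, so this count is no result about the list. Cstf2-205, with 552 bases, held 39.4%, 35.6% and 42.9% without and 33.4%, 27.04% and 20.9% with Activin A. Cstf2-201, with 4502 bases, held 39.2%, 33.01% and 36.3% without and 35.4%, 46.1% and 45.4% with, and these overlapped. In Cep44, Cep44-207 (474 bases) had 36.2%, 40.3% and 33.3% without and 36.4%, 29.98% and 25.2% with Activin A and overlapped, while Cep44-201 had 24.7%, 32.8% and 30.4% without and 39.2%, 36.7% and 35.3% with and did not.

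Among genes whose coding transcript led only without Activin A were Cdca5, which encodes the cohesin protector sororin, and Ajuba, a LIM-domain scaffold of Hippo signalling. Cdca5-201 held 54.6%, 51.7% and 54.3% without and 47.4%, 44.6% and 41.6% with Activin A, and the processed_transcript Cdca5-202 45.4%, 48.3% and 45.7% without and 52.6%, 55.4% and 51.1% with. Ajuba has 2 transcripts, and the coding Ajuba-201 held 55.8%, 56.8% and 54.5% without and 48.7%, 48.5% and 39.3% with Activin A, the rest being the retained_intron transcript Ajuba-202. Neither gene overlapped between the groups. In Ajuba the coding transcript kept the larger number of reads in all 6 libraries, at 2277, 2415 and 2083 without and 2137, 1823 and 1074 with, against 1123, 1148 and 1086 and 1404, 1207 and 1037 of Ajuba-202.

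A retained_intron transcript also came to lead with Activin A in Bclaf1, Cct3, Hsph1, Nid2 and Zfc3h1, and a processed_transcript in Pigo and Hk2. Cct3, a subunit of the TRiC chaperonin, had narrow groups, with 47.3%, 48.9% and 48.05% for Cct3-201 without and 43.5%, 42.5% and 42.8% with Activin A, and 40.7%, 40.1% and 40.8% without and 45.1%, 45.3% and 46.6% with for the 472-base Cct3-203. Bclaf1, a nuclear protein linked to transcription and splicing, had 28.2%, 30.1% and 28.8% for Bclaf1-203 without and 17.5%, 17.7% and 16.6% with, with no overlap. Pigo, an enzyme of GPI-anchor synthesis, had 26.3%, 33.02% and 28.8% for Pigo-201 without and 23.8%, 25.9% and 28.2% with, and these overlapped, as did those of Hsph1-201, of a heat shock protein of the HSP110 family, with 31.8%, 25.6% and 29.9% without and 26.5%, 26.7% and 32.7% with. The lead was 0.130 points in Hk2, which encodes a hexokinase, and 0.113 points in Zfc3h1, a factor of nuclear RNA decay. In Hk2 the 594-base Hk2-202 led with Activin A on 259, 272 and 219.8 reads, against 3947, 3102 and 2337 of Hk2-201 in the same libraries.

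Fn1 (ENSMUSG00000026193.15, chr1:71585520-71653200) and Nid2 (ENSMUSG00000021806.4, chr14:19751265-19811787) encode fibronectin and a nidogen, proteins of the extracellular matrix that fibroblasts also make. The fibroblast sums given above, in which Tagln weighed most, were higher without Activin A. The part of feeder RNA in the shares of both genes was not tested. Fn1 was the only one of 42 listed genes known for isoforms that differ between epithelial, mesenchymal or neural cells among the 47. Of those 42, 33 passed the level floor with at least 2 transcripts. As the rule took 0.875% of all such genes, this count is no result about the list either. Fn1-201, the 8315-base coding transcript, held 33.5%, 34.5% and 29.1% without and 21.3%, 21.5% and 21.3% with Activin A, and the 1190-base nonsense_mediated_decay transcript Fn1-210 27.8%, 19.3% and 15.99% without and 25.5%, 27.2% and 23.1% with. Fn1-201 did not overlap between the groups and Fn1-210 did. Nid2-201 held 45.00%, 43.3% and 46.9% without and 31.4%, 33.3% and 35.4% with, and the 543-base Nid2-202 43.1%, 42.5% and 41.03% without and 49.5%, 46.2% and 47.2% with, neither with an overlap.

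Fn1-201 is the only annotated Fn1 transcript that holds an exon of 273 bases (chr1:71613763-71614035, minus strand), which encodes extra domain B of fibronectin, and 7 transcripts that span it skip it. It is shown in capitals with 13 transcript bases on each side in lower case.
Fn1-201: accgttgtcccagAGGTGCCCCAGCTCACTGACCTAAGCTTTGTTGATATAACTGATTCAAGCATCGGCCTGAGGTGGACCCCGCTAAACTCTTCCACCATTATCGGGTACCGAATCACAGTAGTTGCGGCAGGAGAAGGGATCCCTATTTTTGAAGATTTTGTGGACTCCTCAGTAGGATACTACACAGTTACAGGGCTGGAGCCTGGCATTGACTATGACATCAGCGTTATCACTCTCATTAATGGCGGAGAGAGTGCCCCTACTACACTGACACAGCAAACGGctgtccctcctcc
Among the transcripts that span this exon, Fn1-201 made up 70.2%, 68.2% and 61.2% of TPM without and 55.9%, 57.9% and 55.7% with Activin A, and the groups did not overlap. As no other transcript holds the exon, these shares rest on the TPM of Fn1-201, by which the gene was chosen. They are no separate evidence on the exon.

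In the other direction, a non-coding transcript led without Activin A and a coding one with it. Nudt1 (ENSMUSG00000036639.12, chr5:140321656-140338137), whose product hydrolyses oxidised purine nucleotides, had the widest lead of the 47 genes, and that lead rested on very few reads. Nudt1-206 is a processed_transcript of 166 bases with an effective length of 7.03 bases, so that 4.72, 2.20 and 2.34 reads gave 29.5, 13.7 and 15.4 TPM without Activin A. It held 59.02%, 42.3% and 44.95% of gene TPM without, and in the libraries with Activin A it had 20.03% on 0.801 reads in replicate 1 and was at or near 0 in the others. The coding Nudt1-201 held 8.88%, 29.03% and 29.4% without and 46.9%, 58.5% and 61.4% with, on 71.2, 151 and 154 reads without and 188, 191 and 124 with. Slc15a4, a lysosomal peptide and histidine transporter, was of the same kind, with processed_transcript pairs of 200 and 166 bases and at most 5.34 reads in any library.

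Fbxl5, the iron-sensing F-box protein that targets an iron regulatory protein for degradation, had the largest difference of a coding share among the 47 genes after Nudt1. Fbxl5-201 held 20.5%, 22.5% and 21.4% without and 66.2%, 49.05% and 37.5% with Activin A. The 397-base retained_intron transcript Fbxl5-208 held 35.01%, 25.9% and 26.4% without and 14.8%, 0.00586% and 19.9% with. Neither overlapped, and replicates 1 and 2 with Activin A stood furthest from the group without. Fbxl5-201 had more reads than Fbxl5-208 in all 6 libraries, with 497, 391 and 479.8 without and 1152, 612 and 567 with.

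Non-coding transcripts of 353 to 732 bases also led without Activin A in Mpzl1, Wdr73, Mpdz, Arhgef25, Commd9, Tox4 and Ankrd50. Mpzl1, a cell-surface protein of the myelin P0 family, had 28.9%, 29.2% and 27.6% for the 401-base Mpzl1-205 without and 23.7%, 20.2% and 17.4% with Activin A, and 26.6%, 23.4% and 22.9% without and 27.6%, 33.4% and 38.4% with for the coding Mpzl1-201. Mpdz, a scaffold with many PDZ domains, had 17.9%, 21.8% and 19.8% for Mpdz-205 without and 15.98%, 12.3% and 0% with, and no reads in the last library. Commd9-201, of the COMM-domain gene Commd9, held 40.1%, 46.8% and 46.04% without and 48.2%, 66.3% and 71.9% with, and the coding Wdr73-201 held 24.9%, 23.7% and 26.1% without and 41.5%, 41.9% and 38.1% with. Arhgef25, a RhoGEF gene, had 10.5%, 10.9% and 15.9% for its coding transcript without and 24.2%, 25.4% and 32.00% with. In Wdr73 and Arhgef25 the non-coding shares overlapped between the groups. Wdr73-209 held 52.1%, 32.7% and 38.8% without and 39.2%, 39.2% and 33.1% with Activin A. Arhgef25-203 held 26.2%, 31.3% and 29.4% without and 18.5%, 15.9% and 30.1% with. The coding transcript had the more reads of the pair in all 6 libraries in each of these 7 genes.

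Atp5f1, subunit b of mitochondrial ATP synthase, was the reverse in type. Its incomplete coding transcript Atp5f1-206 of 456 bases held 45.4%, 41.2% and 38.5% without and 34.6%, 32.1% and 37.4% with Activin A, and the nonsense_mediated_decay transcript Atp5f1-203 29.98%, 34.8% and 36.00% without and 37.5%, 42.8% and 41.98% with. Atp5f1-203 had the more reads throughout. Pop5, an RNase P and MRP subunit, and Gtf2i, the transcription factor TFII-I, exchanged non-coding transcripts of 358 to 575 bases, with leads of 1.29 and 0.982 points.

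Transcript usage was also tested over the whole table, with edgeR's quasi-likelihood fit and its test of each transcript against its gene. Of 8968 genes tested, 112 (1.25%) were called at an adjusted p of 0.05, and of the 5064 with at least 10 TPM in all libraries 79 (1.56%) were. The 47 genes were all tested and 4 were called, Atg2b, Fn1, Mib1 and Nid2. The rule used the same contrast, so nothing is read from that count. It was 14 with limma's diffSplice and 10 with DESeq2, tools that called 341 (3.8%) and 287 (3.2%) of all genes tested, and only Atg2b and Nid2 were called by all 3. Leaving out replicate 1 or 2 of either group left 2 of the 47 called, leaving out replicate 3 without Activin A 4 and replicate 3 with it 6, and only Mib1 was called each time. Over all 33992 transcripts 97 (0.285%) were called higher and 37 (0.109%) lower without Activin A, relative to their gene. Of the 91 transcripts of the 47 pairs in the fit, edgeR called 0, with 11 at an unadjusted p under 0.05. The share of all transcripts at that unadjusted level was not counted, so nothing is read from the 11. In the same pairs limma called 19 and DESeq2 10, against 1.69% of all transcripts by limma and 1.21% by DESeq2.

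In each of the 4 called genes the smallest p belonged to a transcript outside the pair that the rule had found. In Mib1 it was Mib1-205, a complete coding transcript of 3216 bases, with 64.1, 53.7 and 57.8 reads without and 0 reads in each library with Activin A. A count of 0 allows up to 3 reads per library by counting error alone. All are model estimates, and Mib1-205 codes over 3018 bases, as many as Mib1-201. How the model divided reads between such transcripts adds an uncertainty that was not measured. In Fn1 the smallest p was that of Fn1-211, a coding transcript of 7965 bases that skips the 273-base exon. It had 5.17, 4.23 and 7.75 reads without and 233, 422 and 307 with Activin A. These were sharp differences in minor transcripts, which held 5.63%, 5.06% and 5.61% of Mib1 without and 2.18%, 4.87% and 5.24% of Fn1 with Activin A. In Atg2b it was the processed_transcript Atg2b-205, which held 19.9%, 29.8% and 15.2% with Activin A and had 126, 176 and 58.1 reads there, while without it reached 14.1 reads in 1 library and was at or near 0 in the others. In Nid2 it was the incomplete coding transcript Nid2-203, with 11.9%, 13.97% and 12.1% without and 19.04%, 20.3% and 17.4% with. The shares of each of these transcripts were separate between the groups, and all 4 were called on their own. They were picked by the smallest p in genes already called, so nothing is read from this.

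The gene lists examined beside the 47 held few of them. Of 85 splicing regulators, 66 passed the level floor with at least 2 transcripts and 0 were among the 47, where the rule took 0.875% of all such genes, so this count is no result about them. The counts of calls that follow stand against 1.25% of all genes tested by edgeR, 3.8% by limma and 3.2% by DESeq2. Counts at an unadjusted p under 0.05 in edgeR stand against 424 of all 8968 genes tested. Nothing is read from such small counts. Of 73 tested splicing regulators edgeR called 3 (4.11%), Hnrnpa3, Luc7l2 and Mbnl2, the last a Muscleblind-family regulator of alternative splicing. In this list limma called 6 and DESeq2 3. Among 17 tested cleavage and polyadenylation genes edgeR called 0, with 3 at an unadjusted p under 0.05, limma 2 and DESeq2 1. Among 16 nonsense-mediated decay genes edgeR called 0, with 0 at an unadjusted p under 0.05, limma 2 and DESeq2 1. Among 27 tested genes of the Nodal, Activin and BMP pathway edgeR called 0, with 5 at an unadjusted p under 0.05, limma 1 and DESeq2 3. Of 17 tested pluripotency genes edgeR called 1 (5.88%), the de novo DNA methyltransferase gene Dnmt3b, while limma called 3 and DESeq2 2. Of 9 ectoderm lineage genes 0 were called by edgeR, limma or DESeq2, with 0 at an unadjusted p under 0.05 in edgeR. Of 41 genes known for isoforms that differ between cell types edgeR called 4 (9.76%), Dst, Flna, Fn1 and Kif1b, while limma called 6 and DESeq2 7.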

How the data were processed

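The deposited salmon tables list 133618 transcripts, each with its estimated count and its TPM in 6 libraries. Per the file headers, the columns are NumReads (estimated counts, used as deposited) and TPM, which salmon scales by effective length and library total. Salmon is named without a version in the submitters' processing notes, as are DESeq2 and edgeR. The sources used here give neither the authors' genome build nor their annotation. Transcripts were matched to GENCODE release M21 (GRCm38) with the version ignored, and 133399 matched. The 219 others were left out.

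Shares were computed with Python 3.11.15, pandas 2.3.3 and numpy 2.4.6 from the deposited TPM values as percent of gene TPM, over all annotated transcripts of a gene. Pairs were classed by transcript type, coding exons, first and last exons and length. Exon shares are TPM of transcripts holding an exon over TPM of all transcripts that hold or skip it, and were added once the values had been seen. They rest on the same TPM values that chose the genes. For the test, estimated counts were rounded to whole numbers. edgeR 4.0.16 in R 4.3.3 fitted them with TMM scaling, filterByExpr (defaults: count 10, total 15), a robust quasi-likelihood fit and diffSpliceDGE, with the Simes p per gene and Benjamini-Hochberg adjustment. The fit of Nudt1-206 and of both Slc15a4 transcripts was not possible because they were removed by the filter. The steps were tested on simulated data. Alternatives used limma 3.58.1, DESeq2 1.42.0, RLE scaling, other filters, an F test, a replicate block, other level floors, reads in place of TPM, subsets of transcripts and the removal of each library. The labels name no separate cultures, so p-values reflect spread among these samples, which may be technical.

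The rule for named genes takes every member where there are 60 or fewer; 45 of the 47 genes are named, and 2 that enter the counts are not reported here. The genes and the gene lists were chosen with earlier results of these data known. How strand was used in counting is not stated in the labels, and salmon divides reads shared by overlapping transcripts by a model, so the split within a pair is an estimate. RefSeq promoter sequences are from GRCm38.p6. Mib1 is described without sequence.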

Additional observations from a re-analysis of the deposited data

How the results depend on the processing

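The number of switching genes depended on what competed for the lead. It was 47 as reported, 62 with a floor of 5 TPM, 29 with 20 TPM, 26 by estimated reads (7 of them among the 47), 30 with protein_coding transcripts only (21 shared), 28 with transcript support level 1 or 2 only (18 shared), 44 with transcripts of the same coding exons merged, 46 with identifiers matched by version, and 1 with a lead of at least 10 points. Leaving out any 1 library gave 77 to 98, all 47 included by construction. Settings chosen after seeing the data gave 43 with transcripts of at least 600 bases (27 shared) and 6 by TPM and reads together. Genes with 2 coding transcripts of different coding exons numbered 17, against 27 with a floor of 5 TPM and 8 with 20 TPM, where last exons did not overlap in 11. With a lead of at least 10 points the counts were 1 for a coding and another type, 0 for different coding exons, and 1 each for first and last exons.

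The share of the transcript dominant without Activin A, without minus with, was followed in the 45 genes described. Apart from changes of sign, which are given below and not counted here, it moved by at least the spread between replicates (1 SD) in 23 of 45 genes by reads. It did so in 15 of 28 with support level 1 or 2 only, in 9 of 31 with protein_coding transcripts only and in 9 of 31 with transcripts of at least 600 bases. In Nudt1 it was 1.18 points by reads, against 42.1. It was 0 in 8 of them under some subset of transcripts. It changed sign only in the cases that follow. Pigo had -1.21 points by reads and -0.551 with protein_coding or with longer transcripts only. With protein_coding transcripts only Hsph1 had -0.165 and Hk2 -0.120 points. On leaving out each library in turn, Wdr73 ranged from -1.41 (replicate 1 of the libraries without Activin A left out) to 8.26 points, Pafah1b2 from -0.936 (replicate 3 of them left out) to 5.24 and Hcfc1 from -1.45 (replicate 2 of the Activin A libraries left out) to 5.33. Hsph1 ranged from -0.868 to 2.50 points and was below 0 without replicate 1 of the libraries without Activin A (-0.868) and without replicate 1 (-0.620) or 2 (-0.491) of the others. The cause was not tested.

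Transcript usage was called in 341 genes with limma, 287 with DESeq2, 235 with the F test and 145 to 207 on leaving out each library, against 112, and in 14, 10, 8 and 2 to 6 of the 47 genes, against 4. With the replicate block 62 genes and 2 of the 47 were called; the deviations of same-numbered libraries correlated at -0.0246, -0.0506 and -0.0571, so the numbers were not taken to pair the samples. Depth limits the short transcripts most, where a few reads set the TPM.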

Other observations

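Of the 26 genes that switched by estimated reads, 7 were among the 47 and 19 were not. Those 19 included the de novo DNA methyltransferase gene Dnmt3a, the cytoskeletal linker gene Macf1 and the splicing-associated gene Son. Their shares were not examined further.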
